A study of Mus musculus with 37 samples.

Results

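The genes described here are 10 components of the machinery that shortens and then degrades maternal mRNA, out of 55401 genes listed in the deposited tables: Btg4, Cnot6, Cnot6l, Cnot7, Cnot8, Pan2, Pan3, Dcp1a, Dcp2 and Zfp36l2. They were chosen by gene symbol alone, and each symbol was found in both tables. An oocyte stores mRNA that is removed as the egg matures and the embryo begins to transcribe its own genome. Removal usually begins with deadenylation, the shortening of the poly(A) tail, by the PAN2-PAN3 complex and by CCR4-NOT, whose catalytic subunits come in a pair of families, CNOT7 or CNOT8 and CNOT6 or CNOT6L. Adaptors bring CCR4-NOT to its targets, among them BTG4, which is required for the decay of maternal mRNA in mouse eggs, and ZFP36L2, which binds AU-rich elements. Decapping by DCP2 with its activator DCP1A then exposes the body of the mRNA to decay from its capped end. Several of these factors are themselves stored as dormant mRNA and translated during maturation, so an mRNA level does not report the amount of protein.

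The series compares the RNA of mouse oocytes and embryos with and without maternal BAP1, a deubiquitinase that removes ubiquitin from histone H2A. Controls were Bap1 flox/flox females and knockouts were Gdf9-iCre, Bap1 flox/flox females, in which iCre driven by the Gdf9 promoter deletes the floxed allele in oocytes. Eggs of both genotypes were fertilized by wild-type males (B6 for the preimplantation libraries, PWK for embryonic day 6.5), so knockout embryos lack maternal Bap1 and carry an intact paternal allele. Total RNA was sequenced in FGO (oocytes at full size), in MII (ovulated eggs) and in embryos cultured in KSOM medium to the late 1-cell (L1C), early 2-cell (E2C) and late 2-cell (L2C) stage, with 2 control and 3 knockout libraries at each stage except E2C, which had 3 of each. Poly(A) RNA was sequenced at embryonic day 6.5 in epiblast (EPI) and visceral endoderm (VE), with 2 libraries per genotype, and in extraembryonic ectoderm (EXE), with 1 control and 2 knockout libraries. Values are FPKM, fragments per kilobase of transcript scaled to the size of the library. In bulk samples of this kind less RNA per cell and fewer cells cannot be told apart, and an FPKM is a share of the RNA in a library and not an amount per embryo. The labels do not say that the libraries of a group came from separate animals, so p-values measure only the spread between these libraries, which may be technical.

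Bap1 itself lay between 16.3 and 29.9 FPKM in the 11 control libraries of the 5 early stages and between 3.76 and 11.7 FPKM in the 15 knockout libraries. FPKM summed to between 300668 and 430784 in the 26 total RNA libraries, and the read depth behind them is unknown. All 6 oocyte markers reached 1 FPKM in each of the 26 libraries. The 8 markers of granulosa and cumulus cells summed to between 5.34 and 12.8 FPKM in the control libraries and between 2.04 and 4.48 FPKM in the knockout libraries, and at most 2 of the 8 reached 1 FPKM in any of them. Cyp19a1 was at 5.16 to 6.72 FPKM in control and 1.52 to 1.87 FPKM in knockout FGO libraries. Amhr2 was at 0.141 FPKM or less up to E2C. It was at 8.59 to 9.60 FPKM in control and 1.44 to 2.34 FPKM in knockout L2C libraries. Amh, Foxl2, Fshr, Has2 and Inha stayed under 1 FPKM. The sums thus rest on few genes, and whether they come from such cells was not tested. Their part in the values of the 10 genes was not tested either. The spread between replicates differed between stages, with a within-group SD on the log2(FPKM + 1) scale of 0.11 to 0.13 in FGO, MII and L1C, 0.21 in L2C and 0.26 in E2C, so libraries were weighted by stage.

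In control oocytes the 10 mRNAs spanned a wide range of levels per unit of length. Btg4 was at 974 and 946 FPKM in the FGO control libraries, the 10th highest of the 15184 genes tested in that group, and stayed among the 25 highest in all 10 early groups. Dcp1a followed at 312 and 283 FPKM and Cnot7 at 179.7 and 198 FPKM. Cnot8, Cnot6l, Pan3, Pan2 and Dcp2 lay between 24.6 and 78.7 FPKM, and Cnot6 at 7.23 and 7.62 FPKM and Zfp36l2 at 4.52 and 5.33 FPKM were the lowest. Within the alternative catalytic pairs control FGO held mainly Cnot6l, at 8.43 ± 0.308 (SD, n = 2) times the FPKM of Cnot6, and Cnot7, at 2.51 ± 0.322 (SD, n = 2) times the FPKM of Cnot8.

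**Figure D1:**
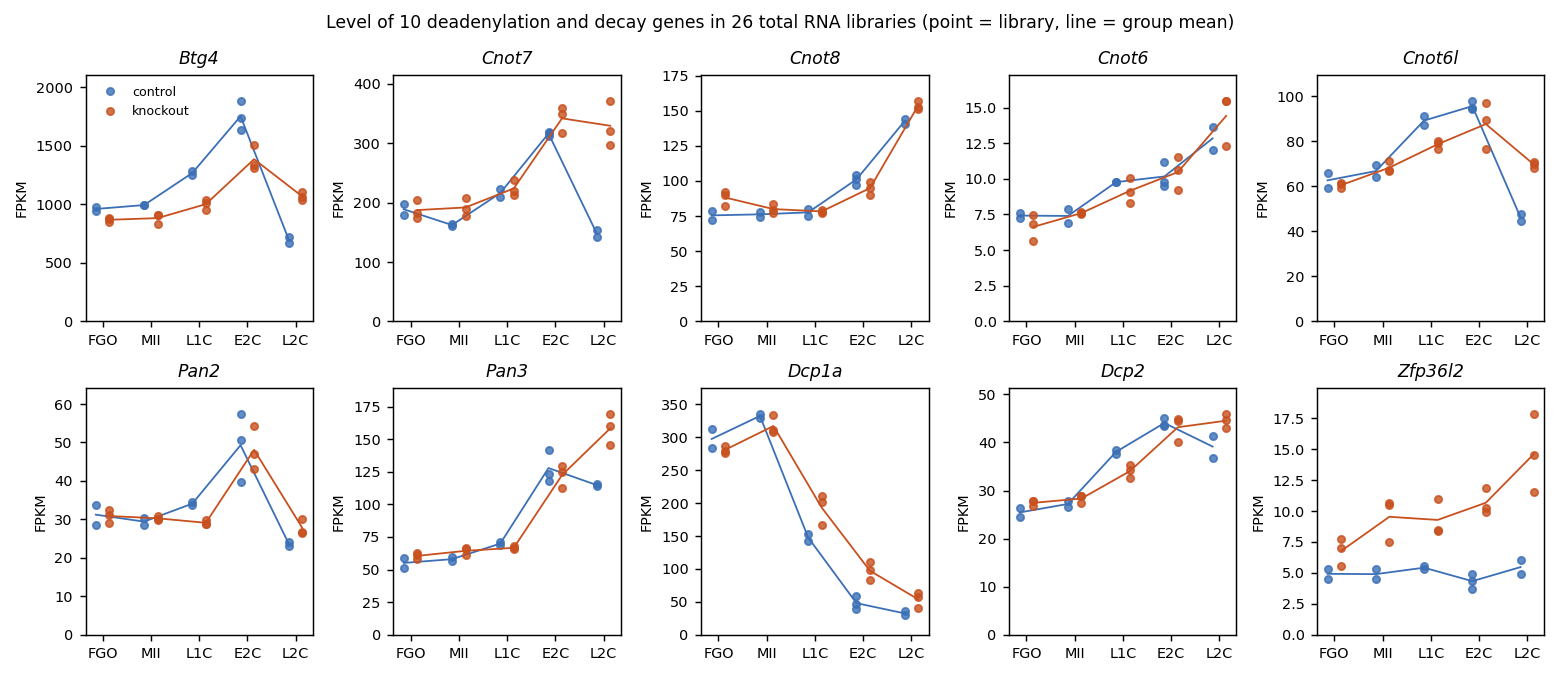
FPKM of each of the 10 genes (vertical axes, linear, starting at 0) in FGO, MII, L1C, E2C and L2C (horizontal axes); each point is a library, blue for control and orange for knockout, and lines join group means. Btg4, Cnot7 and Cnot6l drop from E2C to L2C in controls and are higher in the knockout in L2C. Dcp1a declines from MII onwards, and Zfp36l2 is flat in controls and higher in the knockout.

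The sequences around the genes with the most contrasting courses are shown for orientation. Btg4 spans chr9:51060901-51119875 on the plus strand and Dcp1a chr14:30479535-30527063 on the plus strand (GENCODE M21, GRCm38). On the same build Cnot8 spans chr11:58104153-58118594, Pan2 chr10:128303335-128321358 and Pan3 chr5:147430161-147548502 on the plus strand. Cnot6 spans chr11:49671503-49712723, Cnot6l chr5:96070333-96164171, Cnot7 chr8:40492540-40515847 and Zfp36l2 chr17:84183931-84187947 on the minus strand. RefSeq promoter windows of 300 bases (GRCm38.p6) were found for 7 of the 10 genes. The Btg4 window, chr9:51115751-51116050, plus strand, lies inside the gene span above, because GENCODE lists transcripts from this start and others from starts upstream of it. Which start is used in these samples was not tested. It holds 1 CpG dinucleotide, and 5.43% of the 32851 windows in the table hold fewer. The Dcp1a window, chr14:30479315-30479614, plus strand, holds 25 CpG dinucleotides against a median of 7 over the table. CpG dinucleotides are in capitals.
Btg4 promoter: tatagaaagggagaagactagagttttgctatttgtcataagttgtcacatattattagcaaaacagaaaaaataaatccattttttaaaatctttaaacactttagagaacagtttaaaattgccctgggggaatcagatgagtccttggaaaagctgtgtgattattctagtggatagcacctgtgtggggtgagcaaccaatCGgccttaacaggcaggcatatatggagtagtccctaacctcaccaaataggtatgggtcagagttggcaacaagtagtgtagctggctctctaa
Dcp1a promoter: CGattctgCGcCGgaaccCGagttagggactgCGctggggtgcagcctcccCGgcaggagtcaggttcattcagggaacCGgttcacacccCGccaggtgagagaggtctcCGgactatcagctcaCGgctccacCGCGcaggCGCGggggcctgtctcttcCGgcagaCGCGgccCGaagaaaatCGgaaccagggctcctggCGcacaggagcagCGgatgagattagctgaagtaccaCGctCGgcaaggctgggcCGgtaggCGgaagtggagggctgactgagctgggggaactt
The homeodomain core TAATTG, the E-box CACGTG and the TATA sequence TATAAA, searched on both strands, were found in none of the windows of the 7 genes. They are in 8%, 7.15% and 13.6% of all windows. No match says only that these letters are not in these windows.

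The 3′ untranslated regions (UTRs) were searched on the sense strand for TTTTAT, the DNA spelling of a cytoplasmic polyadenylation element, which marks dormant mRNA for tail lengthening, and for TATTTAT, the core that ZFP36 proteins bind. TTTTAT was found in 8 of the 10 UTRs and TATTTAT in 7, against 49.3% and 26.02% of the UTRs of 20889 genes. UTR length differs between genes and was not matched: Dcp2 has 7240 bases and Cnot6 480 bases, against a median of 848. The motif, in capitals, lies 61 bases from the annotated end in Btg4 and in Dcp1a, and 12 bases from it in Pan2. The Zfp36l2 mRNA holds 3 copies of the core that its own protein binds, and the Cnot8 core lies 40 bases from the end.
Btg4 TTTTAT site: gataaatccctTTTTATgtctttttaaa
Dcp1a TTTTAT site: ttcatcctaaaTTTTATatgtttgcaaa
Pan2 TTTTAT site: aataaaagtatTTTTATctcattagaaa
Cnot8 TATTTAT site: cttgtaaatatTATTTATgtttttaattt
Zfp36l2 TATTTAT site: attgtatgtaaTATTTATttcattaattt
These matches are descriptions of sequence and were not tested for function.

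In controls, maturation from FGO to MII changed none of the 10 genes at an adjusted p under 0.05 by limma with Benjamini-Hochberg adjustment, the threshold used throughout, where 5.39% of all genes tested changed (1.3% higher and 4.1% lower). At an unadjusted p under 0.05 there was 1 of the 10, Cnot7, and the share of all genes at that threshold was not determined. From MII to L1C 6 genes rose and Dcp1a fell, where 25.4% of all genes changed (9.6% rose and 15.8% fell). From L1C to E2C 6 genes again rose and Dcp1a fell, where 47.2% of all genes changed (18.1% rose and 29.1% fell). From E2C to L2C 5 genes fell and Cnot8 rose, where 51.7% of all genes changed (22.5% fell and 29.2% rose). Of the 10 genes, 6 had their highest control mean in E2C (Btg4, Cnot6l, Cnot7, Pan2, Pan3 and Dcp2), Cnot6, Cnot8 and Zfp36l2 had it in L2C, and Dcp1a had it in MII.

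Btg4, the adaptor, increased in controls by 0.35 ± 0.06 (log2 scale, SE) from MII to L1C and by 0.46 ± 0.08 from L1C to E2C. It then fell by 1.33 on the log2 scale (SE 0.10, limma adjusted p = 6.7e-10), from 1737, 1881 and 1634 FPKM in E2C to 724 and 669 FPKM in L2C. No E2C library overlapped an L2C library. Cnot7, the catalytic partner that BTG4 binds, was at 160.4 and 164 FPKM in control MII, at 317, 319 and 313 FPKM in E2C and at 155 and 142 FPKM in L2C. Its decrease into L2C was -1.09 ± 0.14 (limma adjusted p = 8.7e-07). Cnot8, which shares the place of CNOT7 in the complex, rose over the same step by 0.49 ± 0.10 (adjusted p = 0.00021). Centring each library on its median ended that call for Cnot8 (adjusted p = 0.059). The Cnot7 to Cnot8 ratio of FPKM went from 3.13 ± 0.0727 (SD, n = 3) in control E2C to 1.04 ± 0.0469 (SD, n = 2) in control L2C.

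Cnot6l, the catalytic subunit that predominates in the oocyte, was at 94.2, 97.8 and 94.7 FPKM in control E2C and at 47.7 and 44.7 FPKM in L2C, a change of -1.03 ± 0.10 (limma adjusted p = 3.3e-08). Cnot6, its paralog, was at 9.50, 11.2 and 9.79 FPKM in E2C and 13.6 and 12.04 FPKM in L2C, and this difference of 0.31 ± 0.17 did not pass the test (adjusted p = 0.14). The Cnot6l to Cnot6 ratio was 3.60 ± 0.150 (SD, n = 2) in control L2C against 9.44 ± 0.621 (SD, n = 3) in E2C. Pan2, the nuclease of the PAN complex, rose by 0.50 ± 0.11 from L1C to E2C and fell by 1.01 on the log2 scale (SE 0.14, adjusted p = 2.3e-06) from E2C to L2C. Pan3, the subunit that tethers PAN2 to poly(A) binding protein, rose by 0.86 ± 0.09 into E2C (adjusted p = 1.3e-07) and had no called change into L2C (-0.15 ± 0.11, adjusted p = 0.28). Pan3 stood at 4.86 ± 0.131 (SD, n = 2) times Pan2 in control L2C against 1.79 ± 0.370 (SD, n = 2) in control FGO.

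Dcp1a fell at each step after MII. Its control level was 335 and 330.1 FPKM in MII, 153 and 142 FPKM in L1C, 58.7, 46.7 and 38.8 FPKM in E2C, and 29.4 and 35.6 FPKM in L2C. The changes were -1.17 ± 0.11 into L1C (limma adjusted p = 1.7e-07), -1.62 ± 0.16 into E2C (adjusted p = 3.6e-08) and -0.54 ± 0.19 into L2C (adjusted p = 0.023). The call into L2C was lost without E2C control replicate 1 (-0.39, adjusted p = 0.14), L2C control replicate 1 (-0.40, adjusted p = 0.18) or with no filter on low values (adjusted p = 0.083). Dcp2, the decapping enzyme, followed the other course, with 26.6 and 27.8 FPKM in MII and 37.6 and 38.5 FPKM in L1C, a rise of 0.47 ± 0.06 (adjusted p = 2.1e-06). Dcp1a stood at 12.2 ± 0.494 (SD, n = 2) times Dcp2 in MII and at 0.828 ± 0.0432 (SD, n = 2) times Dcp2 in L2C. Zfp36l2 had no called change at any step in controls, with all 11 control libraries between 3.70 and 6.06 FPKM.

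Some of the smaller changes between stages in controls depended on single libraries. The rise of Cnot6 from MII to L1C (0.36 ± 0.10) was lost without MII control replicate 2 (0.27, adjusted p = 0.14) or either L1C control library (adjusted p = 0.066 and 0.075). The rise of Pan3 over the same step (0.27 ± 0.07) was lost without MII control replicate 2 (adjusted p = 0.059) or L1C control replicate 1 (adjusted p = 0.057). The rise of Dcp2 from L1C to E2C (0.21 ± 0.08, limma adjusted p = 0.032) was lost without any of the 5 libraries (adjusted p from 0.055 to 0.12) and was 0.02 with TPM scaling (adjusted p = 0.84). The rise of Cnot8 over that step (0.38 ± 0.08) was also lost with TPM scaling (0.19, adjusted p = 0.070).

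Between genotypes the differences of most members were small in the oocyte and egg. In FGO 1 of the 10 genes was called higher in the knockout and none lower, where 13.9% of all genes tested were called (3.91% higher and 9.97% lower). In MII 2 were higher and 1 lower, where 16.8% of all genes were called (6.57% higher and 10.2% lower). In L1C 2 were higher and 3 lower, where 17.6% of all genes were called (7.6% higher and 10% lower). In E2C 2 were higher and 1 lower, where 13.5% of all genes were called (6.2% higher and 7.28% lower). In L2C 6 were higher in the knockout and none was lower, where 34.2% of all genes were called (17% higher and 17.2% lower). The median difference of the 10 genes was 0.52 in L2C, where that of all genes tested was 0.03, and between -0.08 and 0.05 at the 4 earlier stages. In L2C the knockout libraries of 9 of the 10 genes all lay above the control libraries, with Cnot6 the exception, and 29.1% of all genes tested were separated in that direction.

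**Figure D2:**
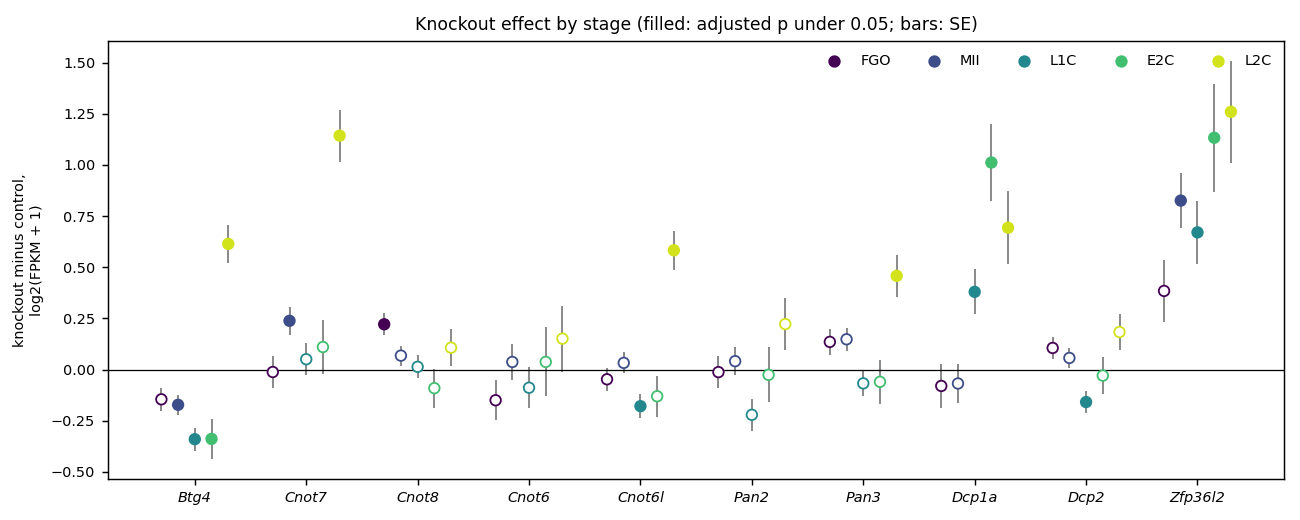
Knockout minus control difference on the log2(FPKM + 1) scale (vertical axis) for each of the 10 genes (horizontal axis) at the 5 stages, in colour from FGO (dark) to L2C (yellow); bars are SE and filled points have an adjusted p under 0.05. Zfp36l2 is filled from MII on and Dcp1a from L1C on, Btg4 is below 0 from FGO to E2C and above 0 in L2C, and 6 genes are filled above 0 in L2C.

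Zfp36l2 was called higher in the knockout at each stage from MII to L2C. It was at 4.52 and 5.33 FPKM in control and 5.55, 7.78 and 6.99 FPKM in knockout FGO, a difference of 0.38 ± 0.15 that did not pass the test (limma adjusted p = 0.10) and passed it without knockout replicate 1 (0.50, adjusted p = 0.015). In MII it was at 5.33 and 4.47 FPKM in control and 7.49, 10.7 and 10.5 FPKM in knockout eggs (0.83 ± 0.14, adjusted p = 0.00014). In L1C the control values of 5.31 and 5.54 FPKM compared with 10.96, 8.49 and 8.40 FPKM in the knockout (0.67 ± 0.15, adjusted p = 0.0039). In these 3 stages no knockout library fell within the range of the controls. Separation in that direction was seen for 17.7%, 19.8% and 22% of all genes tested.

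In E2C Zfp36l2 was at 4.38, 3.70 and 4.92 FPKM in control and at 11.9, 10.3 and 9.90 FPKM in knockout embryos (1.13 ± 0.26, limma adjusted p = 0.0061). In L2C it was at 6.06 and 4.88 FPKM against 11.6, 14.5 and 17.8 FPKM (1.26 ± 0.25, adjusted p = 0.00053). The groups did not overlap at either stage, and the ratio of group means was 2.46 in E2C and 2.67 in L2C. Separation in that direction was seen for 14.6% of all genes tested in E2C and 29.1% in L2C. None of the calls from MII to L2C was lost under any alternative tried. The differences between consecutive stages in the knockout effect did not pass the test (adjusted p from 0.42 to 0.88), so a growth of the effect with stage was not shown. On the opposite strand the annotation lists an antisense gene that overlaps the exons of Zfp36l2, and since counting by strand is not stated, reads of the 2 cannot be told apart.

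Btg4 was lower in the knockout up to E2C and higher in L2C. In L1C it was at 1251 and 1283 FPKM in control and 954, 1039 and 1010.5 FPKM in knockout embryos, a difference of -0.34 ± 0.06 (limma adjusted p = 0.00021). In E2C the values were 1737, 1881 and 1634 FPKM against 1308, 1336 and 1509 FPKM (-0.34 ± 0.10, adjusted p = 0.024). In L2C they were 724 and 669 FPKM against 1066, 1101 and 1032 FPKM (0.61 ± 0.09, adjusted p = 3.2e-05). The groups did not overlap at any of these 3 stages. The knockout lay on the lower side in L1C and E2C and on the upper side in L2C. In these directions 20.9%, 15.1% and 29.1% of all genes tested were separated in L1C, E2C and L2C.

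The L1C and L2C differences of Btg4 held under every alternative tried, and 2 of its differences did not. The MII difference (993 and 993 FPKM against 905, 836 and 905 FPKM, -0.17 ± 0.05, limma adjusted p = 0.021) was lost without either control library (adjusted p = 0.11 and 0.12) or knockout replicate 2 (adjusted p = 0.13), and it was -0.07 with an adjusted p of 0.51 when libraries were centred on their medians. The E2C difference was lost without control replicate 1 (adjusted p = 0.078) or 2 (0.12), or knockout replicate 1 (0.090) or 2 (0.076), and also with TPM scaling (-0.23, adjusted p = 0.22) or centring (-0.26, adjusted p = 0.16). The stage alone, no trend or a replicate block also ended the E2C call. TPM scaling, equal weights or the stage alone also ended the MII call. In FGO Btg4 was at 974 and 946 FPKM in control and 871, 849 and 882 FPKM in knockout oocytes (-0.15 ± 0.06, adjusted p = 0.094).

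Cnot7 showed the largest L2C difference among the catalytic subunits. In E2C it was at 317, 319 and 313 FPKM in control and 318, 349 and 359 FPKM in knockout embryos (0.11 ± 0.13, limma adjusted p = 0.69). In L2C the control libraries were at 155 and 142 FPKM and the knockout libraries at 371, 296 and 321 FPKM (1.14 ± 0.13, adjusted p = 8.7e-07), a ratio of means of 2.22. All knockout libraries lay above both controls in L2C, and the ranges overlapped in E2C. In MII Cnot7 was at 160.4 and 164 FPKM in control and 178, 189.7 and 208 FPKM in the knockout (0.24 ± 0.07, adjusted p = 0.020), a call lost without either control library (adjusted p = 0.14 and 0.088), knockout replicate 2 (0.051) or knockout replicate 3 (0.056), or with equal weights (0.18). Exons of Cnot7 overlap those of Zdhhc2 on the opposite strand, and Zdhhc2 was at 0.369 FPKM or less in all early libraries.

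Cnot8, the paralog of Cnot7, had no called difference in L2C. It was at 144 and 141 FPKM in control and 152, 152 and 157 FPKM in knockout L2C embryos (0.11 ± 0.09, 95% confidence interval from -0.08 to 0.30, limma adjusted p = 0.40). The Cnot7 to Cnot8 ratio of FPKM was 2.14 ± 0.255 (SD, n = 3) in knockout and 1.04 ± 0.0469 (SD, n = 2) in control L2C. In FGO Cnot8 was the only member called, at 78.7 and 72.3 FPKM in control and 92.1, 82.2 and 90.2 FPKM in knockout oocytes (0.22 ± 0.05, adjusted p = 0.0084), and the call was lost without control replicate 2 (0.16, adjusted p = 0.19) or in the stage alone (adjusted p = 0.16). A share of 7.82% of the exonic words of 50 bases of Cnot8 recurs in the pseudogene Gm18860, which was at 0.895 FPKM or less in the early libraries.

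Cnot6l was at 47.7 and 44.7 FPKM in control and 70.8, 70.0 and 67.9 FPKM in knockout L2C embryos (0.58 ± 0.10, limma adjusted p = 7.5e-05). In L1C it was at 87.1 and 91.2 FPKM in control and lower, at 76.5, 79.1 and 80.3 FPKM, in the knockout (-0.18 ± 0.06, adjusted p = 0.039). The groups did not overlap at either stage. Knockout libraries lay above the controls for 29.1% of all genes tested in L2C and below them for 20.9% in L1C. The L1C call was lost in each refit that left out a library other than knockout replicate 3 (-0.15 to -0.21, adjusted p from 0.082 to 0.29), and with TPM scaling (-0.13, adjusted p = 0.18) or equal weights (adjusted p = 0.22). Cnot6 had no called difference at any stage (adjusted p from 0.36 to 0.94), and in L2C it was at 13.6 and 12.04 FPKM in control and 15.5, 15.4 and 12.3 FPKM in the knockout.

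Of the PAN complex, Pan3 was called in L2C and Pan2 at no stage. Pan3 was at 115 and 114 FPKM in control and 169, 145 and 160.5 FPKM in knockout L2C embryos (0.46 ± 0.10, limma adjusted p = 0.0016), with no overlap. Pan2 was at 24.2 and 23.1 FPKM against 26.8, 30.1 and 26.5 FPKM (0.22 ± 0.13, adjusted p = 0.19). In L1C Pan2 was at 33.7 and 34.5 FPKM in control and 29.8, 28.7 and 28.8 FPKM in the knockout (-0.22 ± 0.08, adjusted p = 0.056).

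Of the decapping pair, Dcp1a was higher in the knockout from L1C on. In L1C it was at 153 and 142 FPKM in control and 168, 202 and 211 FPKM in knockout embryos (0.38 ± 0.11, limma adjusted p = 0.019). In E2C the values were 58.7, 46.7 and 38.8 FPKM against 98.6, 111 and 82.6 FPKM (1.01 ± 0.19, adjusted p = 0.0010), a ratio of means of 2.02. In L2C they were 29.4 and 35.6 FPKM against 40.3, 57.4 and 63.8 FPKM (0.69 ± 0.18, adjusted p = 0.0045). Every knockout library lay above every control library at these 3 stages, whereas the ranges overlapped in FGO and MII. At the 3 stages 22%, 14.6% and 29.1% of all genes tested were separated in that direction.

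The E2C difference of Dcp1a held under every alternative tried. The L1C call was lost without control replicate 1 (adjusted p = 0.062) or 2 (0.18), or knockout replicate 2 (0.080) or 3 (0.073), or with equal weights (0.20). The L2C call was lost without control replicate 1 (0.56, limma adjusted p = 0.080) or with no filter on low values (adjusted p = 0.054). The knockout effect on Dcp1a did not differ between consecutive stages at the threshold: its change was 0.45 ± 0.15 from MII to L1C (adjusted p = 0.17) and 0.63 ± 0.22 from L1C to E2C (adjusted p = 0.12). Dcp2 was lower in knockout L1C embryos, at 32.6, 34.2 and 35.2 FPKM against 37.6 and 38.5 FPKM (-0.16 ± 0.05, adjusted p = 0.044), a call lost without either control library (adjusted p = 0.13 and 0.25), knockout replicate 1 (0.11) or knockout replicate 2 (0.098), or with TPM scaling (-0.12, adjusted p = 0.18) or equal weights (0.23). In L2C Dcp2 was at 36.9 and 41.4 FPKM in control and 45.9, 44.7 and 43.1 FPKM in the knockout (0.18 ± 0.09, adjusted p = 0.11).

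The change from E2C to L2C was compared between genotypes directly. The knockout effect in L2C exceeded that in E2C by 0.95 ± 0.13 for Btg4 (limma adjusted p = 4.5e-05), by 1.03 ± 0.18 for Cnot7 (adjusted p = 0.00046), by 0.71 ± 0.14 for Cnot6l (adjusted p = 0.00093) and by 0.52 ± 0.15 for Pan3 (adjusted p = 0.019). Of all genes tested, 18.9% had a called difference of effects, 9.55% in this direction and 9.37% in the other. The first 3 held under every alternative tried. The difference for Pan3 was lost without E2C control replicate 3 (0.44, adjusted p = 0.057), E2C knockout replicate 2 (0.46, adjusted p = 0.051), or L2C control replicate 1 (adjusted p = 0.053) or 2 (adjusted p = 0.058), and with centring (0.46, adjusted p = 0.059). At the earlier steps no member had a called difference of effects, against 0% of all genes from FGO to MII, 0.198% from MII to L1C (0.158% higher and 0.0395% lower) and 3.35% from L1C to E2C (1.28% higher and 2.07% lower). At an unadjusted p under 0.05 there were 2, 6 and 1 of the 10 at these steps. The share of all genes at this unadjusted threshold was not determined. The adjusted shares above are no measure for these counts.

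Put as stage changes, the decrease of Btg4, Cnot6l and Cnot7 was smaller in the knockout. Btg4 fell by 0.37 on the log2 scale (SE 0.09) from E2C to L2C in the knockout, against 1.33 in controls. Cnot6l fell by 0.32 (SE 0.09), against 1.03, and its call in the knockout was lost without E2C knockout replicate 1 (-0.25, limma adjusted p = 0.061). Cnot7 was not called in the knockout, where its change was -0.06 with a 95% confidence interval from -0.32 to 0.20. With each library centred on its median it was -0.36 and passed the test (limma adjusted p = 0.044). Pan2 fell in both genotypes, by 0.77 (SE 0.12) in the knockout, and Cnot8 rose in both, by 0.69 ± 0.09 in the knockout. In the knockout 7 members changed over this step, 4 lower and 3 higher, where 45.5% of all genes changed (18.1% lower and 27.4% higher). Of the rises, that of Cnot6 (0.42 ± 0.16) was lost without E2C knockout replicate 2 (adjusted p = 0.061) or 3 (0.13), without L2C knockout replicate 1 (0.093) or 2 (0.10) and with centring (0.12, adjusted p = 0.58), and that of Pan3 (0.37 ± 0.10) was lost with TPM scaling (0.22, adjusted p = 0.11) or centring (0.06, adjusted p = 0.67).

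**Figure D3:**
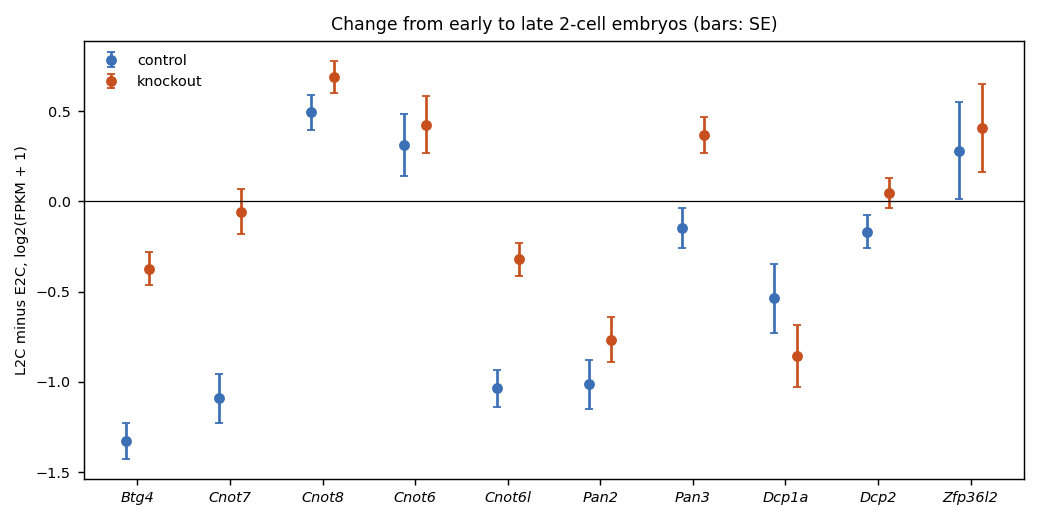
Change from E2C to L2C on the log2(FPKM + 1) scale (vertical axis) for each of the 10 genes (horizontal axis), blue for control and orange for knockout embryos; bars are SE. Btg4, Cnot7 and Cnot6l fall by more than 1 in controls and by less than 0.4 in the knockout, while Cnot8 rises in both.

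Markers of the stage itself also differed between the genotypes. The 6 markers of 2-cell genome activation summed to between 183 and 252 FPKM in control and between 93.2 and 177 FPKM in knockout E2C libraries, and to between 96.7 and 109 FPKM in control and between 252 and 323 FPKM in knockout L2C libraries. In L2C 5 of these 6 were called higher in the knockout and 1 lower, where 17% of all genes were higher and 17.2% lower. The 6 oocyte markers summed to between 243 and 255 FPKM in control and between 410 and 491 FPKM in knockout L2C libraries. In E2C their sums overlapped, with 522 to 615 FPKM in control and 486 to 640 FPKM in knockout libraries. The part of these marker differences in the values of the 10 genes was not tested.

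The remaining stage changes in the knockout were as follows. From FGO to MII 2 members were called higher, where 13.8% of all genes were called (6.49% higher and 7.35% lower), namely Zfp36l2 at 0.43 ± 0.13 and Cnot6l at 0.17 ± 0.05. The Zfp36l2 call was lost without FGO knockout replicate 1 (adjusted p = 0.13) or 3 (0.061), or MII knockout replicate 2 (0.11) or 3 (0.10), and the Cnot6l call without FGO knockout replicate 1 (0.066) or 3 (0.064) or MII knockout replicate 3 (0.083). From MII to L1C 5 members were called, 4 higher and 1 lower, where 16.4% of all genes were called (5.36% higher and 11% lower). Dcp1a fell by 0.72 on the log2 scale (SE 0.09), and Btg4, Cnot6l, Cnot7 and Dcp2 rose by 0.18 to 0.25. From L1C to E2C 7 members were called, 6 higher and 1 lower, where 41.7% of all genes were called (15.2% higher and 26.5% lower), with Dcp1a lower by 0.99 (SE 0.15) and Pan3 higher by 0.86 ± 0.09. Of the small rises into L1C, that of Btg4 was lost without MII knockout replicate 2 or L1C knockout replicate 2 (adjusted p = 0.080 for each), and that of Cnot7 without MII knockout replicate 1 (0.13) or 2 (0.076) or L1C knockout replicate 2 (0.060) or 3 (0.13).

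Clearance of maternal transcripts, the process in which these factors act, was read from 1073 genes that were lower by at least 2 on the log2 scale in L2C than in FGO, averaged over both genotypes, with an adjusted p under 0.05 by limma. The choice used the FGO and L2C libraries of both genotypes, so differences at those stages are a description. Relative to control FGO, the median of these genes was -0.46 and -0.47 in control L1C libraries and -0.28, -0.32 and -0.35 in knockout L1C libraries. It was -1.93, -1.85 and -1.94 in control E2C libraries and -1.75, -1.33 and -1.78 in knockout E2C libraries. It was -2.73 and -2.66 in control and -2.49, -2.34 and -2.30 in knockout L2C libraries. The knockout libraries lay above the controls at these 3 stages, and the genotypes overlapped in MII, where the medians were -0.05 to -0.09.

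The median knockout minus control difference of the 1073 genes was 0.00 in MII, 0.18 in L1C and 0.30 in E2C, beside 0.00, 0.01 and 0.00 for all genes tested. In L1C 213 of them were called higher and 51 lower, where 7.6% of all genes tested were called higher and 10% lower. In E2C 219 were higher and 20 lower, where 6.2% of all genes were higher and 7.28% lower. The E2C value was 0.18 without E2C knockout replicate 2, the library whose median lay farthest from the rest. Of the 1073 genes, 55 were already lower by at least 1 in MII than in FGO, also averaged over both genotypes and with an adjusted p under 0.05, and these had a median difference of 0.24 in L1C, 0.12 in E2C and -0.00 in L2C. The other 1018, which did not meet this rule in MII, had median differences of 0.17, 0.31 and 0.36. Some of them also fell by MII, since 97 were called lower from FGO to MII in control and 178 in the knockout.

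Dcp1a was the only member among the 1073 genes, with a change of -2.78 from averaged FGO to L2C. Relative to control FGO its libraries were at -0.95 and -1.06 in control and -0.82, -0.56 and -0.49 in knockout L1C, and at -2.32, -2.65 and -2.91 in control and -1.58, -1.42 and -1.84 in knockout E2C. In L2C they were at -3.30 and -3.03 in control and -2.85, -2.35 and -2.20 in the knockout. At each of these stages both Dcp1a and the median of the maternal genes lay higher in all knockout libraries than in all control libraries.

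**Figure D4:**
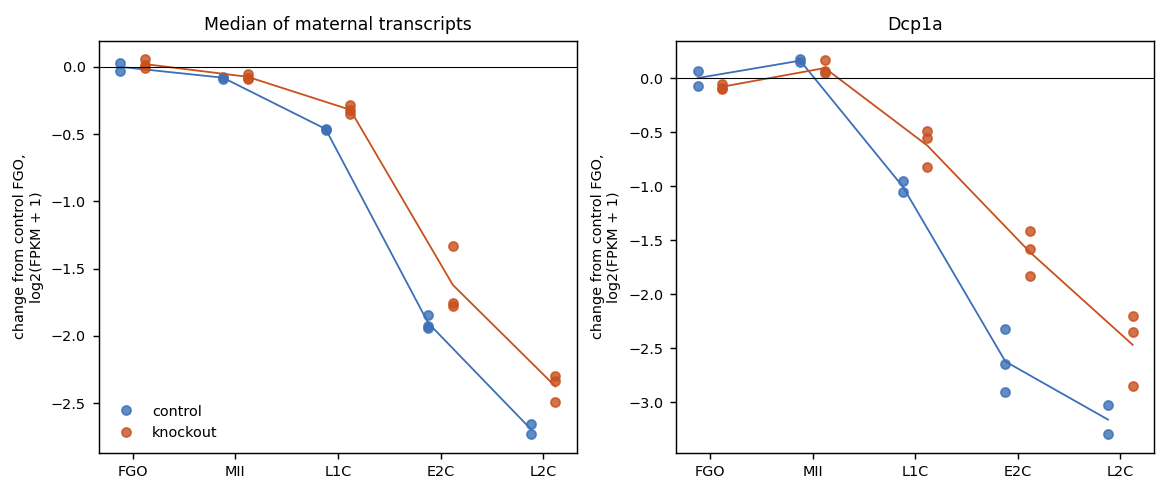
Change from control FGO on the log2(FPKM + 1) scale (vertical axes) at the 5 stages (horizontal axes), for the median of 1073 maternal transcripts (left) and for Dcp1a (right); points are libraries, blue for control and orange for knockout, and lines join group means. Both decline after MII, and in L1C, E2C and L2C the knockout points lie above the control points.

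Maternal transcripts with a TATTTAT core in the 3′ UTR, the ZFP36 family motif, were compared with those without. The 162 with the core had a median knockout minus control difference of 0.07 in MII, 0.15 in L1C, 0.42 in E2C and 0.28 in L2C. The 775 without it had medians of 0.01, 0.19, 0.29 and 0.36. The UTRs with the core had a median length of 1436 bases and those without 348 bases, and the part of length in these values was not tested.

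Other parts of the machinery were followed with lists of 78 further genes, of which 76 are in the table and 69 were tested. In L2C 13 of the 69 were higher and 20 lower in the knockout, with a median of -0.21, where 17% of all genes tested were higher and 17.2% lower and their median was 0.03. These 33 calls were 20 with no filter on low values and 22 without control replicate 2. In FGO 4 were higher and 2 lower (all genes 3.91% and 9.97%), and the 6 calls were 1 with equal weights, 1 without control replicate 2 and 3 without knockout replicate 3. In MII 6 were higher and 9 lower (all genes 6.57% and 10.2%), and the 15 calls were 2 with equal weights and 8 without control replicate 1, control replicate 2 or knockout replicate 1. In L1C 3 were higher and 4 lower (all genes 7.6% and 10%), and the 7 calls were 11 with centring, 4 with equal weights and 4 without either control library. In E2C 3 were higher and 2 lower (all genes 6.2% and 7.28%), and the 5 calls were 16 with equal weights.

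Of the 7 scaffold and other subunits of CCR4-NOT, 4 were higher and 2 lower in knockout L2C embryos. The shares over all genes tested in L2C were 17% higher and 17.2% lower. Cnot4, a ubiquitin ligase associated with the complex, was at 19.7 and 17.4 FPKM in control and 43.4, 45.7 and 45.6 FPKM in the knockout (1.23 ± 0.15, limma adjusted p = 2.9e-06). Cnot10 was at 10.0 and 13.3 FPKM against 4.45, 4.22 and 3.74 FPKM (-1.29 ± 0.21, adjusted p = 5.7e-05). These 2 subunits moved in opposite directions with no overlap of the groups. In L2C 29.1% of all genes tested were separated upwards and 27.7% downwards. Of the 19 tested adaptors 3 were higher and 4 lower, among them Btg2, a relative of BTG4 that also binds CNOT7 and CNOT8 (3.82 and 4.69 FPKM against 9.80, 9.03 and 10.0 FPKM, 1.02 ± 0.21, adjusted p = 0.00083). Rc3h2, a roquin that binds stem-loops, was lower (-0.74 ± 0.27, adjusted p = 0.040), a call lost without any 1 of the 5 libraries (adjusted p from 0.050 to 0.19).

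Of 6 genes listed as other deadenylases, an activity not examined here, 2 were lower in knockout L2C embryos and none was higher. Over all genes tested 17.2% were lower and 17% higher. Pde12, a mitochondrial deadenylase, was at 5.15 and 4.01 FPKM in control and 2.55, 1.56 and 1.93 FPKM in the knockout (-0.89 ± 0.19, limma adjusted p = 0.00084). Noct was at 36.3 and 41.0 FPKM against 24.3, 31.2 and 18.8 FPKM (-0.65 ± 0.17, adjusted p = 0.0064), a call lost without control replicate 2 (-0.56, adjusted p = 0.076) or knockout replicate 3 (-0.47, adjusted p = 0.054). A share of 34.2% of the exonic words of Noct recurs in other genes, so its level is uncertain.

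Of 14 tested factors of decapping and decay from the capped end, 2 were higher and 3 lower in L2C. For this list and the next, the shares over all genes tested were 17% higher and 17.2% lower. Lsm4 and Lsm5, subunits of the LSM ring that activates decapping, were lower by -1.14 ± 0.38 (limma adjusted p = 0.023) and -1.12 ± 0.41 (adjusted p = 0.038). The Lsm4 call was lost without control replicate 1 (-0.82, adjusted p = 0.24), knockout replicate 1 (0.063) or knockout replicate 3 (0.095), and the Lsm5 call without control replicate 2 (-0.80, adjusted p = 0.29), knockout replicate 1 (0.091) or knockout replicate 2 (0.098). Of 15 tested genes of the exosome and SKI complexes, which degrade RNA from the tail end, 2 were higher and 6 lower, with a median of -0.60. Exosc5, a core exosome subunit, was at 8.12 and 7.73 FPKM in control and 1.51, 2.18 and 2.05 FPKM in the knockout (-1.62 ± 0.34, adjusted p = 0.00096). Dis3, the exosome nuclease, was at 20.8 and 22.4 FPKM against 7.56, 9.39 and 7.46 FPKM (-1.31 ± 0.28, adjusted p = 0.00086). Exons of Exosc5, Dis3 and Pde12 overlap genes on the opposite strand.

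Of 8 tested genes for terminal uridylation and poly(A) binding, 2 were higher and 3 lower in L2C. Over all genes tested 17% were higher and 17.2% lower. Both listed genes that were higher act in the germ line. Pabpc1l, the oocyte form of cytoplasmic poly(A) binding protein, was at 6.58 and 7.25 FPKM in control and 16.9, 23.5 and 21.8 FPKM in the knockout (1.45 ± 0.15, limma adjusted p = 3.0e-07). Pabpn1l, an egg poly(A) binding protein that acts as an adaptor in maternal mRNA decay, was at 1.02 and 2.01 FPKM against 4.81, 4.91 and 5.79 FPKM (1.32 ± 0.18, adjusted p = 1.3e-05). Of 12 well known maternal transcripts 8 were higher in knockout L2C and none lower, where 17% of all genes were higher, 4 were higher in E2C, where 6.2% were, and 4 in L1C, where 7.6% were. Nobox, an oocyte transcription factor, was at 9.04 and 7.23 FPKM in control and 19.7, 19.4 and 22.7 FPKM in knockout L2C (1.25 ± 0.12, adjusted p = 1.1e-07). Figla, another, was at 1.55, 0.806 and 2.57 FPKM in control and 5.77, 4.52 and 4.34 FPKM in knockout E2C (1.20 ± 0.33, adjusted p = 0.020), a call lost without control replicate 1 (adjusted p = 0.068) or 2 (0.12) or knockout replicate 1 (0.072).

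Genes with a course most like that of a member were ranked by Pearson's r over the 10 early group means among 9053 genes, a description in which all points share libraries and scaling. Btg4 was closest to Lpcat2 (0.972), Triqk (0.970) and Il12rb2 (0.962). Cnot6l was closest to Scaper (0.981), Pou5f1 (0.977) and Trim60 (0.977). Pou5f1, the pluripotency factor OCT4 that is also stored in the oocyte, was at 145 FPKM in control E2C, 65.03 FPKM in control L2C and 92.7 FPKM in knockout L2C (group means). Zfp36l2 was closest to Tead1 (0.974), which was at 1.73 FPKM in control and 7.35 FPKM in knockout L2C, followed by Bambi-ps1 (0.929) and Ttll4 (0.904).

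At embryonic day 6.5, in tables normalised apart from the early ones, the oocyte forms were scarce. Btg4 was at 0.194 FPKM or less in all 11 libraries and was not tested. Cnot6l lay between 0.676 and 1.91 FPKM and Cnot6 between 4.65 and 16.3 FPKM, so that Cnot6l stood at 0.106 ± 0.0583 (SD, n = 2) of Cnot6 in control EPI. Cnot8 exceeded Cnot7, with a Cnot7 to Cnot8 ratio of 0.531 ± 0.237 (SD, n = 2) in control EPI and 0.672 ± 0.0579 (SD, n = 2) in control VE. Dcp1a was at 0.267 ± 0.0613 (SD, n = 2) of Dcp2 in control EPI. In each catalytic or decapping pair the member that was higher in oocytes was thus the lower one in these lineages.

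No member was called in EPI or VE, where 9 were tested and limma called 0% and 0.00748% of all genes, and 0 of the 9 had an unadjusted p under 0.05 in either. Zfp36l2 was at 14.4 and 11.6 FPKM in control and 18.01 and 23.1 FPKM in knockout EPI, without overlap (0.62, 95% confidence interval from -0.47 to 1.71, adjusted p = 1.00). In EPI 14.6% of all genes tested were separated in that direction. In VE Zfp36l2 was at 1.61 and 5.61 FPKM in control and 3.70 and 5.55 FPKM in the knockout. In EXE it was at 7.18 FPKM in the control and 6.81 and 4.33 FPKM in the knockout libraries. Cnot7 was at 16.5 and 45.2 FPKM in control and 11.4 and 47.8 FPKM in knockout EPI, a spread between replicates larger than any difference between genotypes. The test did not pair libraries by replicate number, and same-numbered libraries deviated with correlations of 0.59 in EPI and 0.43 in VE. Dcp1a was at 4.80 and 4.10 FPKM in control and 6.03 and 5.24 FPKM in knockout EPI (0.28, interval from -0.51 to 1.08). With intervals of this width, differences of the size seen in L2C were not detectable here for most members.

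**Figure D5:**
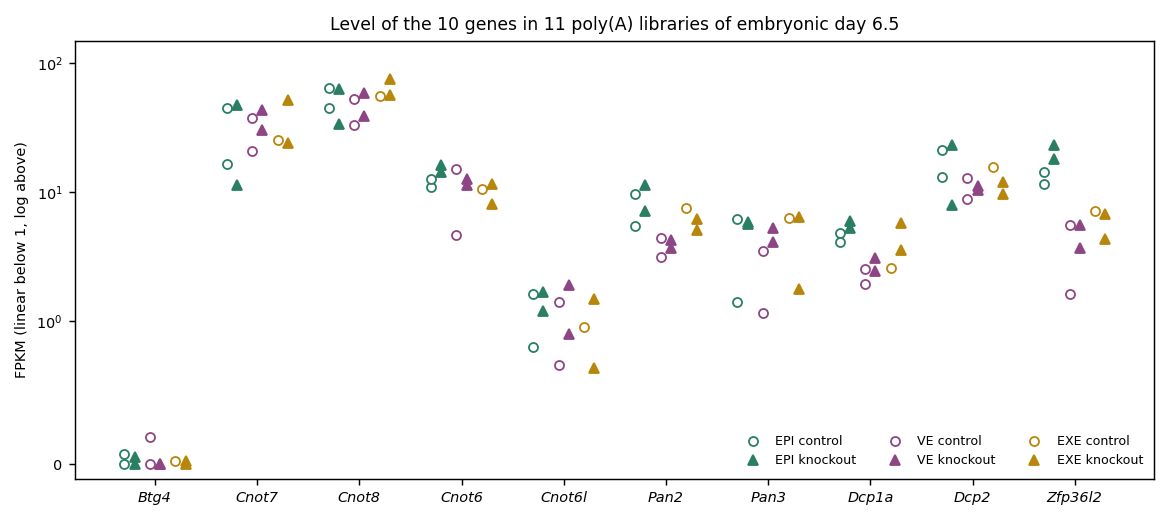
FPKM (vertical axis, linear below 1 and logarithmic above) of the 10 genes (horizontal axis) in 11 poly(A) libraries of embryonic day 6.5, green for epiblast, purple for visceral endoderm and ochre for extraembryonic ectoderm; open circles are control and filled triangles knockout libraries. Btg4 is near 0 in all lineages, Cnot6l lies below Cnot6, and control and knockout libraries intermingle for most genes.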

How the data were processed

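The authors deposited FPKM, 1 column per library, in a table of 26 total RNA libraries and a table of 11 poly(A) libraries of mouse oocytes and embryos. Per the submitters' processing notes, Trim Galore 0.6.6, STAR 2.7.9, StringTie 2.1.7 and the mm10 build were used; their roles, the annotation and the counting strand are not given in the sources used here. The column of control EPI replicate 1 was recorded as another unit because the authors' file lists 1 value below 0 in it, which was set to 0. FPKM keep no read numbers, so depth is unknown, and the number of libraries limits the precision. No column was left unmapped.

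Values were analysed as log2(FPKM + 1), which understates changes of low genes, keeping genes that reached 1 FPKM in 2 or more libraries (15184 early, 13376 at embryonic day 6.5). limma 3.58.1 in R 4.3.3 was fitted to the 26 early libraries with weights per stage and an intensity trend, and to the 8 EPI and VE libraries with equal weights, p-values being adjusted by Benjamini-Hochberg per contrast and called under 0.05. EXE, with 1 control library, was described only. Stage differences of the knockout effect were interaction contrasts. Symbols and positions are from GENCODE M21 (54349 of 55401 identifiers in the same version) and promoters from RefSeq. Tables and figures were made with pandas 2.3.3, Python 3.11.15 and matplotlib 3.10.9. The code was tested on simulated data.

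The members, lists and tests were chosen with earlier results of these data known. Besides the members, at most 2 genes of each list, those with the largest called knockout difference at any early stage, were named, and for Btg4, Cnot6l and Zfp36l2 the 3 genes of the most similar course. Values of Zdhhc2 and Gm18860 were added after they were seen. Where several alternatives ended a call, the text does not always name each of them. The alternatives were a pseudocount of 0.1, no filter, a mean of 5 FPKM or more, scaling to TPM, centring on library medians, equal weights, the libraries of the compared stages alone, no trend, a replicate block, and leaving out each library.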

Additional observations from a re-analysis of the deposited data

Results flagged for a closer look

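The knockout effect differed between E2C and L2C for 4 of the 10 genes, by the interaction contrast in limma. Of all genes tested 18.9% had such a call, 9.55% in the direction of the 4 genes and 9.37% in the other. The L2C effect exceeded the E2C effect by 0.95 for Btg4, 1.03 for Cnot7, 0.71 for Cnot6l and 0.52 for Pan3 on the log2(FPKM + 1) scale. All 3 knockout libraries lay above both control libraries in L2C for each of the 4 genes, as they did for 29.1% of all genes tested. In E2C the Btg4 libraries lay below the controls, and those of Cnot7, Cnot6l and Pan3 overlapped them. The 2-cell activation markers summed to 93.2 to 177 FPKM in knockout and 183 to 252 FPKM in control E2C libraries. Their L2C sums were 252 to 323 FPKM in knockout and 96.7 to 109 FPKM in control libraries. The part of these sums in the values of the 4 genes was not tested.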

How the results depend on the processing

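The number of members called in FGO, 1, was 0 with equal weights or the compared libraries alone and 0 to 2 without 1 library. In MII it was 3, then 5 with centring, 1 with equal weights, 1 with the stage alone and 1 to 3 without 1 library. In L1C it was 5, then 3 with TPM scaling, centring, the stage alone or no trend, 2 with equal weights and 2 to 4 without 1 library. From FGO to MII in the knockout it was 2, then 1 without a filter or trend, 0 with equal weights or the stages alone, and 0 to 3 without 1 library. From MII to L1C in the knockout it was 5, then 3 with TPM scaling, 2 with equal weights and 3 to 5 without 1 library. The E2C and L2C counts were 2 to 3 and 5 to 6 without 1 library. The median E2C difference of the maternal genes ranged from 0.18 to 0.39 without 1 library. The cause of these changes was not tested.

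The change of Cnot7 from E2C to L2C in the knockout ranged from -0.15 to 0.015 without 1 library, reversing without L2C knockout replicate 2 (adjusted p = 0.95). Replicate numbers are shared between genotypes without a label that pairs them, and same-numbered early libraries deviated with correlations of -0.08 to 0.14 (EPI 0.59, VE 0.43). A replicate block called 2 members in L1C and 1 from FGO to MII in the knockout.

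Over all genes, the calls in FGO, MII, L1C and E2C were 2107, 2545, 2675 and 2046. They were 803, 1199, 1553 and 1357 at a mean of at least 5 FPKM, 903, 895, 1176 and 4407 with equal weights, and 964, 1364, 1657 and 1193 with a stage alone. Centring moved the median of all genes in MII to 0.11 and TPM scaling that in L2C to 0.16, and the share of higher calls from 28.1% to 52.8% (FGO), 39.2% to 66.3% (MII), 43.1% to 53.3% (L1C) and 46.0% to 60.7% (E2C) with centring, and from 49.8% to 64.3% (L2C) with TPM. Depth is unknown, most control groups hold 2 libraries, and stage weights rest on few libraries.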
